A study of Mus musculus with 40 samples.

Results

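The genes described here are 10 components of the circadian clock, taken by their symbols: the activators *Arntl*, *Clock* and *Npas2*, the repressors *Per1*, *Per2*, *Per3*, *Cry1*, *Cry2* and *Nr1d1*, and the output gene *Dbp*. All 10 were found among the 16475 probe sets of the array that are not controls, each with 1 probe set. Of these, 7 passed the filter on low values, a signal intensity averaging over 20 on the 40 arrays, and were among the 6479 genes that were tested; *Npas2*, *Per2* and *Per3* lay below and are given by their values. Expression was measured in the gastrocnemius and the quadriceps, which are 2 muscles of the hind leg, of the same 20 male C57BL/6J mice (written C56BL/6J in the sample labels), with 1 Affymetrix array per muscle and mouse. The 4 groups of 10 arrays were gastrocnemius of high fat diet (HFD) mice, quadriceps of HFD mice, gastrocnemius of low fat diet (LFD) mice and quadriceps of LFD mice. The diets, both with palm oil as fat, were given for 8 weeks, after all mice had eaten a run-in LFD for 3 weeks from 9 weeks of age, so that the mice were 20 weeks old. All mice were fasted before dissection, and no time of day of dissection is given in the sources used here. For RNA extraction, every one of the 40 labels speaks of quadriceps alone; the muscle of an array was read from its title and tissue label.

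The clock is a feedback loop of transcription that runs in nearly every cell with a period of about a day. The proteins of *Arntl* (BMAL1) and *Clock*, or of its close relative *Npas2*, form a dimer that binds E-boxes and switches on the *Per*, *Cry*, *Nr1d1* and *Dbp* genes; PER and CRY proteins return to block the dimer, and the nuclear receptor REV-ERBα, made from *Nr1d1*, represses *Arntl* through ROR elements. In skeletal muscle the loop is known to drive daily rhythms of genes of substrate use, and transcripts of the activator *Arntl* are known to peak at another time of day than those of *Dbp*.

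All 8 listed markers of skeletal muscle were over the signal filter, with a summed signal intensity of 145478 to 165946 per array, and array medians lay between 8.8 and 9.4. Both arrays of LFD mouse 141 stood apart in genes that separate the muscles. *Hoxd8* had a signal intensity of 362.3 in its gastrocnemius, against 533.1 to 761.0 in the other 9 LFD mice, and of 346.0 in its quadriceps, against 60.8 to 147.2. *Tbx1* had 205.3 in the gastrocnemius of this mouse (others 36.0 to 56.3) and 242.0 in its quadriceps (others 354.0 to 634.0). The main results of LFD mice are therefore also given without it. Relations between different genes over the mice of both diets, given further below, include it. Over all tested genes, the deviations of the 2 muscles of a mouse from their group means had a median correlation of -0.07 in HFD mice and 0.39 in LFD mice, against -0.01 and -0.05 between muscles of different mice of the same diet.

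The promoters of *Per1*, *Arntl* and *Cry1* are shown because the results below turn on *Per1* and *Arntl*, and because *Cry1* was the other member whose window holds an E-box. They are the 250 bases before the first listed start of each gene in RefSeq (GRCm38.p6), written along the gene's strand; capitals mark the motifs found. *Per1* lies on chromosome 11 (chr11:69098699-69098948, plus strand), *Arntl* on chromosome 7 (chr7:113207215-113207464, plus strand) and *Cry1* on chromosome 10 (chr10:85185055-85185304, minus strand).
*Per1*: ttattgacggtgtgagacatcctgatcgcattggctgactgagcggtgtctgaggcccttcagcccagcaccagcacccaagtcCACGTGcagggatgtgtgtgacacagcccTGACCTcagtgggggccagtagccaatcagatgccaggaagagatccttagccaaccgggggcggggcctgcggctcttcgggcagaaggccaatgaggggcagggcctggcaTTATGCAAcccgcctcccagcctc
*Arntl*: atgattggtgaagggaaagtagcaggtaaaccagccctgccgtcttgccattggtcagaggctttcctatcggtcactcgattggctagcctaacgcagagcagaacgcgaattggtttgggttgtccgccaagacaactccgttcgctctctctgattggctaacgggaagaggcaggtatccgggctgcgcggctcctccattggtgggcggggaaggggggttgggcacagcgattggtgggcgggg
*Cry1*: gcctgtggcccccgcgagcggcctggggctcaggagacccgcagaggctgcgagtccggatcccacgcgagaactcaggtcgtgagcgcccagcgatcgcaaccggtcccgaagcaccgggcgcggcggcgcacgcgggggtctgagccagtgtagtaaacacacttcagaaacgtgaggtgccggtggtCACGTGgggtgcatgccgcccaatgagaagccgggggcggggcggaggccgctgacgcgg
Searched on both strands were the E-box CACGTG, the D-box TTATGNAA, the ROR core AGGTCA and the cAMP response element TGACGTCA. The *Per1* window holds an E-box that begins 166 bases before the start, a ROR core on the opposite strand (TGACCT) at 137 bases and a D-box (TTATGCAA) at 24 bases. The *Cry1* window holds an E-box at 60 bases, the *Per3* window 2 D-boxes, at 205 and 158 bases, and 1 of the 3 *Clock* windows a ROR core at 119 bases. None of these letters were in the windows of *Arntl* (2 starts), *Npas2*, *Cry2*, *Nr1d1* and *Dbp*, nor in that of the second *Per1* start. Elements with other letters, across the edge of a window or outside it were not searched for, so a window without a motif does not show that the gene lacks one. Among all 32851 windows of this length in the table, 6.02% hold the E-box, 3.07% the D-box, 14.02% the ROR core and 1.55% the cAMP response element. No window of *Per2* was matched.

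The activators *Arntl* and *Clock* were measured on every array. *Arntl* had a lowest, median and highest signal intensity of 65.7, 103.2 and 122.7 in HFD gastrocnemius and of 72.5, 104.4 and 141.0 in HFD quadriceps. In LFD mice the same values were 66.4, 104.1 and 142.9 in gastrocnemius and 62.9, 102.0 and 147.9 in quadriceps, so that the 4 groups covered nearly the same range. *Clock*, the partner of *Arntl* in the activating dimer, ranged from 200.7 to 296.3 in HFD gastrocnemius, from 207.6 to 284.4 in HFD quadriceps, from 203.0 to 343.3 in LFD gastrocnemius and from 187.3 to 290.3 in LFD quadriceps. *Npas2*, which can take the place of *Clock*, lay between 3.2 and 5.1 on all arrays, below the median of every array.

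*Per1*, a repressor that is also an immediate response gene of glucocorticoids and cAMP, was the member with the widest spread between mice. Its lowest, median and highest signal intensities were 29.5, 74.8 and 152.8 in HFD gastrocnemius, 38.2, 58.1 and 143.7 in HFD quadriceps, 19.2, 57.2 and 138.9 in LFD gastrocnemius and 20.4, 52.7 and 158.1 in LFD quadriceps. Within a group the highest mouse was thus 3.76 to 7.75 times the lowest. The standard deviation of *Per1* within groups was 0.87 on the log2 scale, the 42nd widest of the 6479 tested genes, whose median was 0.19. *Nr1d1* had a standard deviation of 0.39 (rank 405), *Arntl* of 0.32 (rank 780) and *Cry1* of 0.32 (rank 833). The other tested members varied no more than a typical gene, with 0.19 for *Clock* (rank 3242), 0.17 for *Dbp* (rank 3755) and 0.11 for *Cry2* (rank 5562).

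Of the other repressors, *Cry1* ranged from 44.4 to 116.6 over the 40 arrays and *Cry2* from 234.5 to 379.7. *Per2* and *Per3* reached at most 14.6 and 7.0. *Nr1d1* had a lowest, median and highest signal intensity of 183.6, 338.5 and 588.4 in HFD gastrocnemius and of 194.1, 335.0 and 416.3 in HFD quadriceps, and of 238.7, 333.9 and 570.0 in LFD gastrocnemius and 225.7, 297.0 and 524.5 in LFD quadriceps. *Dbp*, a transcription factor that carries the rhythm to genes with D-boxes, had 756.0, 908.7 and 1034.3 in HFD gastrocnemius and 703.4, 990.0 and 1057.2 in HFD quadriceps. In LFD mice it had 814.0, 941.8 and 1230.0 in gastrocnemius and 814.9, 972.5 and 1167.8 in quadriceps. The plot of the signal intensities by group shows these overlaps for all 10 genes.

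**Figure D1:**
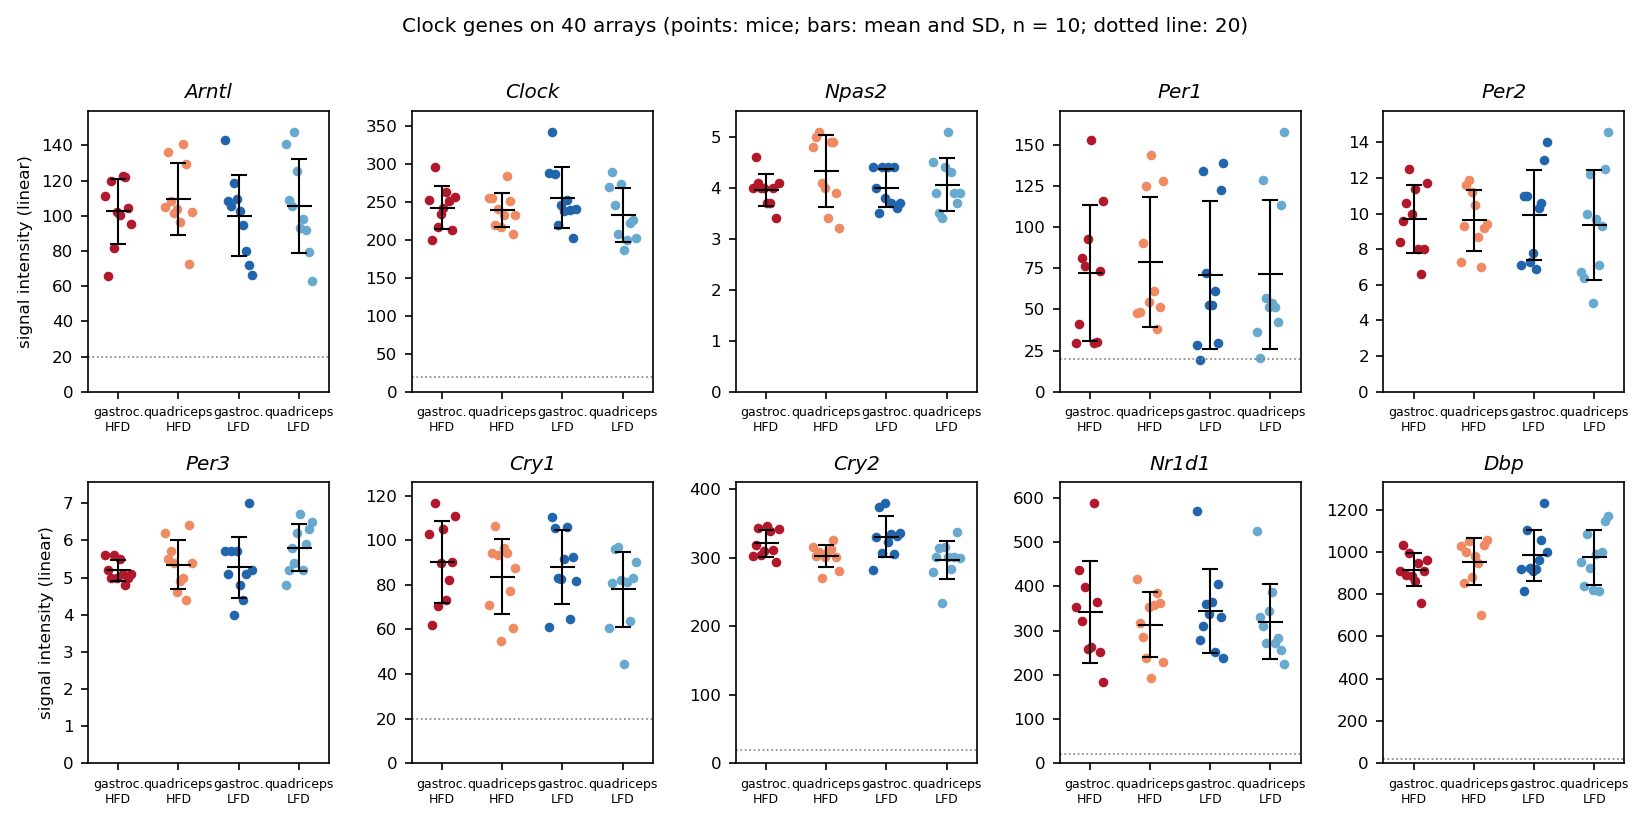
Signal intensity (linear scale, from 0) of each clock gene on the 40 arrays, by muscle and diet; each point is 1 mouse, bars give mean and SD (n = 10), and the dotted line marks 20. The groups overlap in every gene, *Per1* spreads from 19.2 to 158.1, and *Npas2*, *Per2* and *Per3* stay below 20.

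Whether the clock differs between muscle types was asked within each diet. None of the 7 tested members was differentially expressed between gastrocnemius and quadriceps (limma, fold change over 1.3 and adjusted p under 0.05), in HFD mice, where 3.46% of all tested genes were called, or in LFD mice, where 2.52% were. At an unadjusted p under 0.05 there were 0 members in HFD mice and 1 in LFD mice, against 18.7% and 19% of all tested genes. Without mouse 141 the count in LFD mice was also 0 of 7, and 216 instead of 163 of all tested genes were called. The ranges of the muscles overlapped for all 10 genes in both diets. The gene under an unadjusted p of 0.05 in LFD mice was *Cry2*, which averaged 330.6 ± 29.8 in LFD gastrocnemius and 296.7 ± 27.2 in LFD quadriceps (SD, n = 10 each), a log2 fold change of 0.16 ± 0.06 (SE, 95% interval 0.03 to 0.29), with the gastrocnemius above the quadriceps in 9 of 10 mice. Its adjusted p was 0.156 (limma), and 0.107 without mouse 141. With the mouse as a block, which pairs the muscles of an animal, the adjusted p of *Cry2* in LFD mice was 0.0482 (fixed) and 0.0325 (random, limma), and its fold of 1.115 kept it from being called. In HFD mice *Cry2* averaged 321.3 ± 19.8 in gastrocnemius and 302.8 ± 16.4 in quadriceps (SD, n = 10 each), with a log2 fold change of 0.09 (-0.01 to 0.18, adjusted p = 0.326, limma), and the gastrocnemius lay above the quadriceps in 7 of 10 mice.

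The intervals of the muscle differences, which the plot of fold changes shows for all 7 genes, come from fits that do not pair the muscles of a mouse. For *Arntl* the log2 fold change was -0.10 (95% interval -0.35 to 0.15) in HFD mice and -0.07 (-0.38 to 0.24) in LFD mice, and for *Dbp* -0.05 (-0.20 to 0.09) and 0.02 (-0.15 to 0.18). *Clock* gave 0.01 (-0.13 to 0.16) in HFD mice and 0.14 (-0.06 to 0.33) in LFD mice. These bounds lay near or within 1.3-fold. *Cry1* (0.11 and 0.19) and *Nr1d1* (0.09 and 0.10) had upper bounds of 0.38 to 0.47. Without mouse 141 the log2 fold changes in LFD mice were -0.08 for *Arntl*, 0.14 for *Clock*, 0.20 for *Cry1*, 0.02 for *Dbp* and 0.10 for *Nr1d1*. For *Per1* the intervals ran from -0.88 to 0.48 in HFD mice and from -0.86 to 0.78 in LFD mice, past 1.3-fold in either direction. Without pairing, the spread between mice enters these intervals, and they do not bound the difference within a mouse. Within mice, *Per1* was higher in gastrocnemius in 3 of 10 HFD mice and 5 of 10 LFD mice. Its signals in the muscles of a mouse differed by a median of 1.19-fold and at most 2.07-fold. The number of arrays also limits the precision of all these values.

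**Figure D2:**
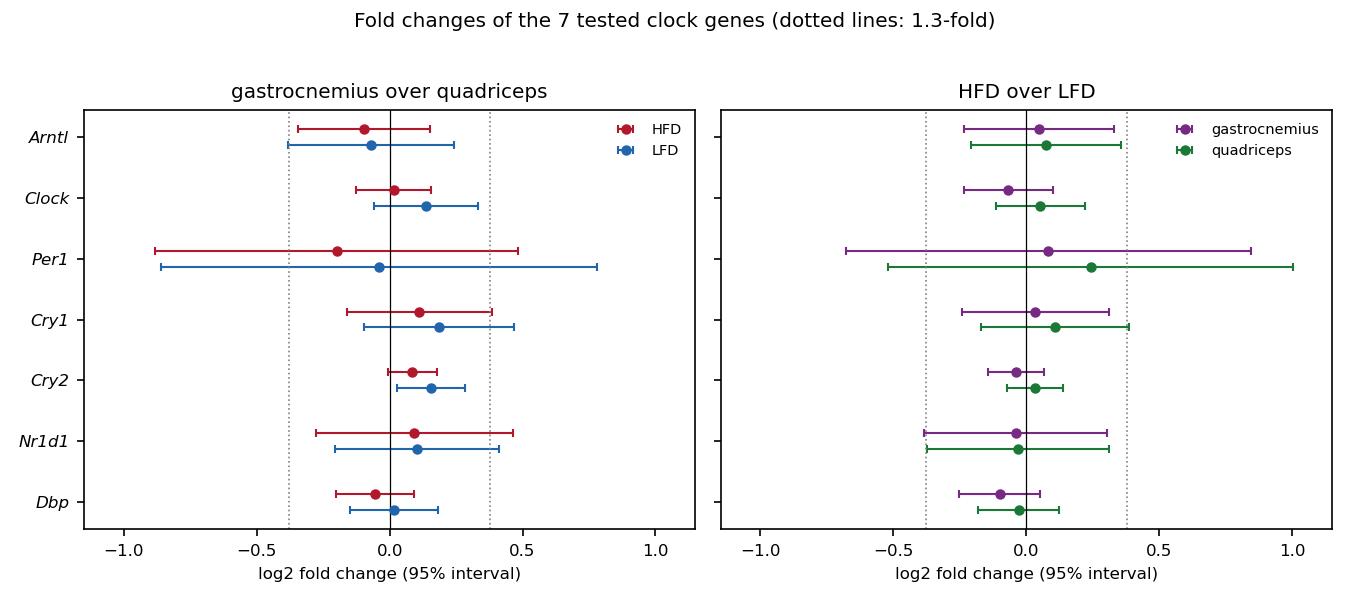
Log2 fold changes with 95% intervals (limma) of the 7 tested clock genes, gastrocnemius over quadriceps in HFD and LFD mice (left) and HFD over LFD in gastrocnemius and quadriceps (right); dotted lines mark 1.3-fold. All intervals but that of *Cry2* in LFD mice (0.03 to 0.29) include 0, and those of *Per1* are the widest. The fits on the left do not pair the muscles of a mouse.

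The diet made no called difference to any tested member either. Between HFD and LFD mice, 0 of 7 members were called in gastrocnemius (0.216% of all tested genes) and 0 of 7 in quadriceps (0.0617%), and 0 members had an unadjusted p under 0.05 in either muscle (8.97% and 5.68% of all tested genes, limma). *Dbp* averaged 915.3 ± 77.0 in HFD gastrocnemius and 983.4 ± 119.4 in LFD gastrocnemius (SD, n = 10 each), a log2 fold change of -0.10 (-0.25 to 0.05, adjusted p = 0.796, limma), and in quadriceps the log2 fold change was -0.03 (-0.18 to 0.12). For *Arntl* it was 0.05 (-0.24 to 0.33) in gastrocnemius and 0.07 (-0.21 to 0.36) in quadriceps. *Per1* again had the widest intervals, -0.68 to 0.84 in gastrocnemius and -0.52 to 1.003 in quadriceps. The dependence of the muscle difference on diet (interaction) was called for 0 members and for 0 of the 6479 genes. At an unadjusted p under 0.05 there were 0 members and 1.82% of all genes. This fit does not pair the muscles of a mouse. Under 7 other settings, among them the mouse as a block, 0 members and 0 of all genes were called.

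Both muscles came from the same animals, and the design allowed a test of whether a gene deviates in the same direction in both. The test is limma's F test of the mouse in a model of the 4 groups. Over all 40 arrays it called 1 of the 7 tested members, *Per1*, against 2.61% of all tested genes. With F = 17.1 and an adjusted p of 5.55e-06, *Per1* ranked 10th among the 6479 genes. The adjusted p of *Per1* stayed between 7.03e-07 and 5.52e-05 when each mouse was left out. The F of *Dbp* was 3.93 (adjusted p = 0.0584), of *Arntl* 3.79 (0.0649), of *Nr1d1* 3.61 (0.0803), of *Clock* 2.74 (0.174), of *Cry2* 1.85 (0.345) and of *Cry1* 1.54 (0.428), all by limma. Leaving out mouse 144 called *Arntl* and *Dbp* (adjusted p = 0.0164) as well, mouse 157 *Arntl* and *Nr1d1* (0.0460), and mouse 146 *Nr1d1* (0.0425). At an unadjusted p under 0.05 there were 5 of the 7 members, against 17.3% of all tested genes, and the median F was 3.61 for the 7 and 1.37 for all tested genes.

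*Per1* was high or low in both muscles of the same mice. Its signal intensity was over 100 in both muscles of HFD mice 150 (152.8 in gastrocnemius and 143.7 in quadriceps) and 158 (115.9 and 128.1). The same held for LFD mice 147 (134.0 and 128.9), 159 (122.5 and 113.3) and 160 (138.9 and 158.1). The lowest mouse in both muscles was LFD mouse 142, with 19.2 in gastrocnemius and 20.4 in quadriceps. The muscles of 1 mouse differed by a median of 1.19-fold and at most 2.07-fold, whereas muscles of different mice of a diet differed by a median of 1.88-fold. Over the 20 mice, with diet means subtracted, gastrocnemius and quadriceps correlated with r = 0.886 (permutation p = 2e-05) and rho = 0.871 (permutation p = 2e-05), and r was 0.844 without the 2 mice farthest from the median. Within diets r was 0.772 in HFD mice (permutation p = 0.0126, n = 10) and 0.966 in LFD mice (permutation p = 1e-05, the smallest that the permutations can give, n = 10), and 0.966 without mouse 141. In HFD mice r dropped to 0.566 without the 2 farthest mice, 150 and 158.

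The F test was also run within each diet. In LFD mice alone *Per1* had F = 59.6 (adjusted p = 1.56e-05, limma), the 4th smallest p of all tested genes, and in HFD mice alone F = 8.93 (adjusted p = 0.0759, limma), which lay between 0.0227 (without mouse 149) and 0.292 (without mouse 150) with each mouse left out and was under 0.05 without mouse 149 or mouse 151 (0.0455). In LFD mice 4 of the 7 tested members were called, *Per1*, *Arntl*, *Nr1d1* and *Dbp*, against a share of 11.4% of all tested genes, and in HFD mice 0 of 7, against 0.525%. At an unadjusted p under 0.05 the counts were 1 of 7 in HFD mice (6.41% of all genes) and 5 of 7 in LFD mice (35%). Without mouse 141 the LFD count was 2 of 7, *Per1* and *Arntl*, and 240 instead of 737 of all tested genes were called.

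**Figure D3:**
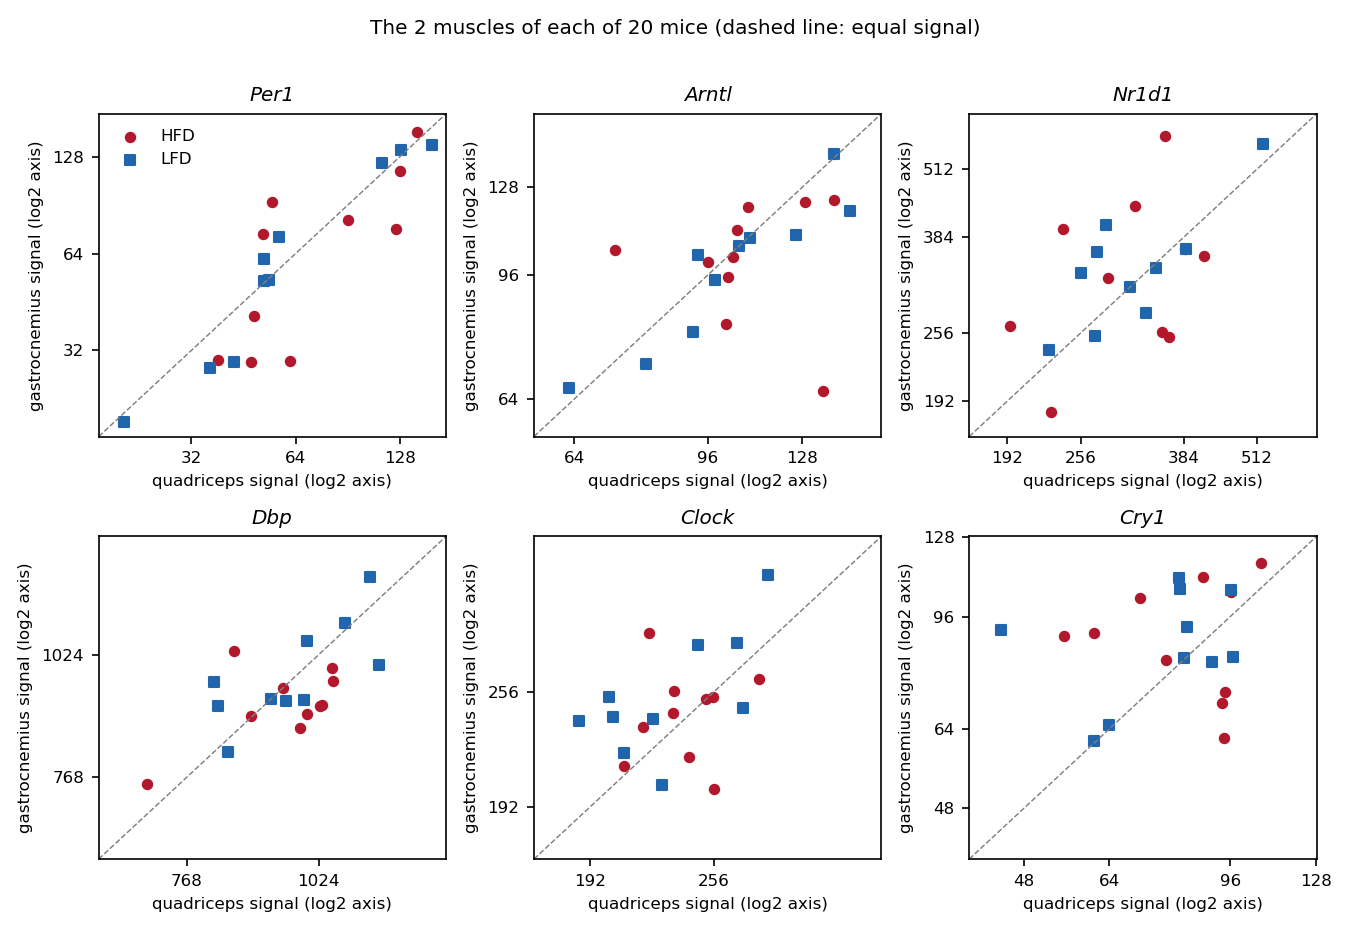
Signal intensity in gastrocnemius (y, log2 axis) against quadriceps (x, log2 axis) for 6 clock genes; each point is 1 mouse, HFD as circles and LFD as squares, and the dashed line marks equal signals. *Per1* follows the line from 19.2 to 158.1, *Arntl* follows it in LFD mice, and *Cry1* scatters.

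*Arntl* followed the mouse closely on the LFD. Its F in LFD mice alone was 20.9 (adjusted p = 0.00158, limma), rank 17, and 16.7 (adjusted p = 0.00788) without mouse 141. Mouse 160 had the lowest signals in both muscles (66.4 and 62.9) and mouse 159 the next in gastrocnemius and in quadriceps (71.8 and 79.6), while mice 141 (142.9 and 140.8) and 148 (118.6 and 147.9) were highest. Between the muscles of LFD mice r was 0.924 (permutation p = 0.00028, n = 10) and rho 0.976 (permutation p = 9e-05, n = 10), and r was 0.915 without mouse 141. In HFD mice r was -0.04 (permutation p = 0.911, n = 10) and rho 0.406 (permutation p = 0.250, n = 10). One HFD mouse weighed most in this: mouse 144 had 65.7 in gastrocnemius and 136.4 in quadriceps, and without it r in HFD mice was 0.499. Over all 20 mice *Arntl* gave r = 0.555 (permutation p = 0.0166) and rho = 0.690 (permutation p = 0.00157), and r = 0.385 without the 2 mice farthest from the median. The F over 40 arrays, not called, was called without mouse 144 (8.78, adjusted p = 0.000879) and without mouse 157 (4.77, adjusted p = 0.0287), over a range of 0.000879 to 0.226 with each mouse left out (limma).

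*Dbp* and *Nr1d1* came next. For *Dbp* the muscles correlated over 20 mice with r = 0.654 (permutation p = 0.00273) and rho = 0.644 (permutation p = 0.00432), and r = 0.574 without the 2 farthest mice. Within diets r was 0.559 in HFD mice and 0.732 in LFD mice (permutation p = 0.106 and 0.0145, n = 10 each). HFD mouse 152 was low in both muscles (756.0 and 703.4) and LFD mouse 159 high in both (1230.0 and 1145.3). Without mouse 152, r in HFD mice was -0.18, and without mouse 141, r in LFD mice was 0.739. The call of *Dbp* in LFD mice (F = 5.22, adjusted p = 0.0459, limma) was lost without a filter on low values (adjusted p = 0.117) and on leaving out any of mice 141, 142, 147, 148, 153, 156, 159 and 160 (adjusted p 0.0508 to 0.0983). For *Nr1d1* r was 0.535 (permutation p = 0.0188) and rho 0.474 (permutation p = 0.0440), and r was 0.374 without the 2 farthest mice and 0.395 without mouse 141 alone. Mouse 141, with 570.0 in gastrocnemius and 524.5 in quadriceps, was the highest LFD mouse in both muscles. The call of *Nr1d1* in LFD mice (F = 8.15, adjusted p = 0.0202, limma) was lost without mouse 141 (3.00, adjusted p = 0.167) or mouse 160 (6.23, adjusted p = 0.0508), and r in LFD mice was 0.753 with mouse 141 and 0.431 without it.

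Of the other members, some had lower correlations and some low signals. *Clock* gave r = 0.473 (permutation p = 0.0526), *Cry2* 0.397 (permutation p = 0.126), *Npas2* 0.325 (permutation p = 0.164), *Per3* 0.249 (permutation p = 0.296) and *Cry1* 0.156 (permutation p = 0.521) over 20 mice. *Per2*, near the median of the arrays, gave r = 0.532 (permutation p = 0.0279) and rho = 0.546 (permutation p = 0.0215), with r = 0.814 in HFD mice (permutation p = 0.00468, n = 10) and 0.425 in LFD mice (permutation p = 0.215, n = 10), and 0.351 in LFD mice without mouse 141. These are 10 relations, and their p-values are not adjusted. Across all 6479 tested genes the median r was 0.166 over 20 mice, -0.01 in HFD mice and 0.389 in LFD mice, as the plot of all correlations shows for the 20 mice; *Per1* ranked 16th by r, *Dbp* 146th, *Arntl* 350th and *Nr1d1* 412th. Of 10 tests of a difference in r between diets, that of *Arntl* (HFD minus LFD -0.96) had a permutation p of 0.0368 and the others 0.107 to 0.982, without adjustment.

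**Figure D4:**
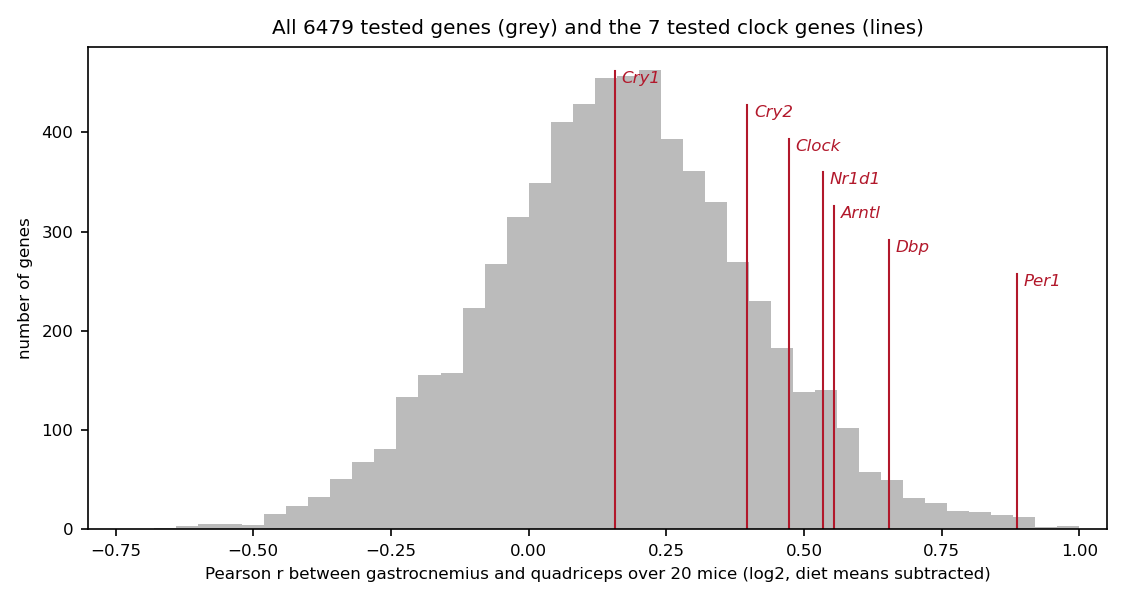
Number of genes (y) by Pearson r between gastrocnemius and quadriceps over 20 mice, log2 signals with diet means subtracted (x), for all 6479 tested genes (grey) and the 7 tested clock genes (lines). The median gene had r = 0.166, *Cry1* lay at 0.156 and *Per1*, at 0.886, farthest to the right of the 7.

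Whether the members moved with or against *Arntl* was tested by the slope of each gene on *Arntl*, with diet as a term. None of the 6 other tested members was called in gastrocnemius (0.0154% of 6478 genes) or in quadriceps (0 of 6478), and with *Arntl* taken from the other muscle of the mouse, which leaves no array on both sides, none of 7 was called either way (0 of 6479 each). At an unadjusted p under 0.05 there were 2 of 6 members in gastrocnemius and 3 of 6 in quadriceps (4.62% and 4.31% of all genes). They were *Dbp* and *Clock* in both muscles and *Per1* in quadriceps. *Dbp* had a slope of -0.31 ± 0.09 (SE, unadjusted p = 0.00387, adjusted p = 0.743) in gastrocnemius and -0.34 ± 0.11 (unadjusted p = 0.00569, adjusted p = 0.986) in quadriceps, in log2 per log2 of *Arntl* (limma). *Clock* had positive slopes of 0.37 ± 0.12 (adjusted p = 0.824) and 0.31 ± 0.11 (adjusted p = 0.986, limma). The slope of *Per1* was -1.10 ± 0.62 in gastrocnemius (unadjusted p = 0.0918) and -1.13 ± 0.49 in quadriceps (unadjusted p = 0.0310, adjusted p = 0.986, limma). That of *Nr1d1* was 0.35 ± 0.30 in gastrocnemius (unadjusted p = 0.244) and 0.46 ± 0.22 in quadriceps (unadjusted p = 0.0519, limma). With each mouse left out, the slope of *Nr1d1* ranged between 0.11 and 0.69 in gastrocnemius and between 0.30 and 0.66 in quadriceps.

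Across muscles, *Nr1d1* had slopes on the *Arntl* of the other muscle of 0.78 ± 0.23 (gastrocnemius on quadriceps, unadjusted p = 0.00303, adjusted p = 0.281) and 0.67 ± 0.21 (quadriceps on gastrocnemius, unadjusted p = 0.00510, adjusted p = 0.994, limma). With each mouse left out, the first ranged between 0.65 and 0.89 and the second between 0.50 and 0.91. The slopes of *Arntl* itself were 0.52 ± 0.18 and 0.59 ± 0.20, and those of *Per1* -1.46 ± 0.54 and -1.09 ± 0.53. Those of *Dbp* (-0.14 and -0.22), *Clock* (0.15 and 0.17), *Cry1* (-0.27 and -0.18) and *Cry2* (-0.01 and -0.05) had unadjusted p-values of 0.118 or more. In all, 3 of 7 members gastrocnemius on quadriceps and 2 of 7 quadriceps on gastrocnemius had an unadjusted p under 0.05 (11.2% and 3.61% of all genes).

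Between the members, as a description over 20 mice per muscle with diet means subtracted and with both genes read from the same arrays, *Arntl* and *Dbp* had r = -0.643 in gastrocnemius and -0.602 in quadriceps, and *Arntl* and *Clock* 0.603 and 0.567. The repressors *Per1* and *Per2* had 0.556 and 0.683, and *Per1* and *Nr1d1* -0.592 and -0.718. *Per1* and *Dbp* had 0.439 and 0.706. *Cry1* and *Nr1d1* had -0.708 and -0.584. With *Per1* from gastrocnemius and the partner from quadriceps, and then the reverse, r was 0.674 and 0.628 for *Per2*, -0.682 and -0.350 for *Nr1d1* and 0.560 and 0.572 for *Dbp*. With *Arntl* in the place of *Per1*, r was -0.363 and -0.304 for *Dbp* and 0.297 and 0.256 for *Clock*. With *Cry1* in that place, r was -0.283 and -0.047 for *Nr1d1*. These pairs of *Arntl* and *Cry1* were thus weaker across the muscles than on the same arrays. Not all pairs of *Arntl* were. With *Nr1d1*, *Arntl* had r = 0.261 and 0.427 on the same arrays and 0.585 and 0.607 across the muscles. With *Per1* it had -0.368 and -0.463 on the same arrays and -0.422 and -0.515 across the muscles.

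The genes most like *Arntl* over all 40 arrays, with group means subtracted, were *Zbtb16* (r = 0.644), a zinc finger repressor, *Lpar6* (0.614), *Amotl1* (0.594), *Nacc2* (0.590) and *Nfil3* (0.590), the repressor that competes with DBP for D-boxes. Most opposed were *Klf2* (-0.679), *Slc25a25* (-0.635), *Tob2* (-0.628), 1 probe set that carries no name here (-0.618) and *Nudt7* (-0.615). The same list was made for *Per1* after its values had been seen. It was led by *Arrdc2* (0.892), *Klf6* (0.858), *Cebpd* (0.856), a transcription factor of the acute response, *Lnx1* (0.833) and *Jdp2* (0.829). At the other end stood *Ilkap* (-0.815), *Vegfa* (-0.800), the growth factor of blood vessels, *Phka1* (-0.792), a subunit of the muscle's phosphorylase kinase, *Efna1* (-0.776) and *Cd55* (-0.737). These are orders of likeness over arrays that come in pairs from 20 mice, with no test.

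Genes next to the core loop were read in 3 lists. Of 15 further loop genes, 13 were matched and 7 tested; of 15 output genes, 13 were tested; and of 12 genes that respond to glucocorticoids or fasting, 11 were tested. No gene of the 3 lists was called between the muscles, beside 3.46% of all tested genes in HFD mice and 2.52% in LFD mice. None was called between the diets, beside 0.216% in gastrocnemius and 0.0617% in quadriceps. Between the muscles in HFD mice, 1 output gene had an adjusted p under 0.05 (limma) but missed the fold limit. At an unadjusted p under 0.05 there were 3 of 7, 1 of 13 and 0 of 11 (18.7% of all genes). In LFD mice there were 3 of 7, 2 of 13 and 2 of 11 (19%). The F test of the mouse over 40 arrays called 2 of 7 loop genes, 3 of 13 output genes and 5 of 11 glucocorticoid and fasting genes, beside 2.61% of all tested genes. The loop genes were *Ciart* (F = 5.09, adjusted p = 0.0170), a repressor of the BMAL1 dimer, and *Nfil3* (4.44, adjusted p = 0.0344, limma). The output genes were *Klf15* (10.7, adjusted p = 0.000142), a regulator of amino acid and lipid use, *Usp2* (10.1, adjusted p = 0.000198), a deubiquitinating enzyme, and *Myod1* (6.73, adjusted p = 0.00332, limma), the myogenic factor.

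The glucocorticoid and fasting genes called were *Fkbp5* (F = 8.17, adjusted p = 0.000961), a chaperone of the glucocorticoid receptor, the kinase *Sgk1* (7.71, adjusted p = 0.00144), the metallothionein *Mt1* (5.60, adjusted p = 0.0103), *Ddit4* (4.74, adjusted p = 0.0249), an inhibitor of mTORC1, and *Angptl4* (4.53, adjusted p = 0.0318, limma), an inhibitor of lipoprotein lipase. The muscles correlated over the 20 mice with r = 0.862 for *Usp2*, 0.850 for *Klf15*, 0.778 for *Sgk1* and 0.774 for *Fkbp5*. Over 40 arrays *Per1* had r = 0.679 with *Ciart*, 0.669 with *Usp2*, 0.667 with *Sgk1*, 0.561 with *Klf15* and 0.474 with *Ddit4*. For the other called genes r was 0.321 with *Myod1*, 0.232 with *Mt1*, -0.173 with *Nfil3*, -0.244 with *Angptl4* and -0.359 with *Fkbp5*. In HFD mice alone *Sgk1* (13.5, adjusted p = 0.0142) and *Myod1* (12.3, adjusted p = 0.0207, limma) were called, beside 0.525% of all tested genes. In LFD mice alone 4 of 7, 5 of 13 and 4 of 11 were called, beside 11.4% of all tested genes. Among them were *Nfil3* (18.4, adjusted p = 0.00242), the uncoupling protein *Ucp3* (15.7, adjusted p = 0.00442) and the ubiquitin ligase *Fbxo32* (6.86, adjusted p = 0.0268, limma). Without mouse 141 these counts were 2 of 7, 3 of 13 and 2 of 11, beside 240 of all tested genes (3.7%). *Nfil3* (adjusted p = 0.00355), *Ucp3* (0.0177) and *Fbxo32* (0.0449, limma) were among them. In the fit of both diets without mouse 141 the counts were 2 of 7, 3 of 13 and 5 of 11, beside 2.33% of all tested genes.

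Markers of other cell types were set beside the members on the same arrays. In whole muscle, fewer cells of a type and less RNA per cell cannot be told apart. The 5 endothelial markers, of which 4 were over the filter, summed to 634.1 to 741.8 in HFD gastrocnemius, 525.3 to 753.1 in HFD quadriceps, 557.0 to 716.1 in LFD gastrocnemius and 456.3 to 697.1 in LFD quadriceps. Their sum had r = -0.688 with *Per1* over 40 arrays (group means subtracted). The Schwann cell markers, 3 matched of 5 with 2 over the filter, summed to 550.5 to 1340.9 in HFD gastrocnemius, 410.8 to 697.8 in HFD quadriceps, 603.2 to 1277.9 in LFD gastrocnemius and 439.4 to 670.5 in LFD quadriceps, and had r = 0.514 with *Per1*. Most of this sum was *Pmp22*, with a mean of 654.6 on all arrays, beside 105.3 for *Mbp* and 6.1 for *Sox10*. The other cell type lists had r with *Per1* between -0.365 (skeletal muscle) and 0.347 (macrophage). The sum of the 8 skeletal muscle markers had r = 0.734 with *Nr1d1* and -0.759 with *Cry1*. Neutrophil markers (6 matched of 6, 5 over the filter) summed to 31.2 to 37.1 in HFD gastrocnemius, 28.9 to 12448.3 in HFD quadriceps, 29.7 to 37.5 in LFD gastrocnemius and 27.9 to 2536.6 in LFD quadriceps, with r between -0.263 and 0.150 with the 10 members. The part of these cell types in the results above was not tested.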

How the data were processed

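RNA of gastrocnemius and quadriceps of the same 20 mice was hybridised to 40 Affymetrix arrays. The authors deposited normalized signal intensities on a linear scale, made by GC-RMA with probes regrouped into 1 probe set per Entrez gene. No GC-RMA version is given in the sources used here. The table held 16539 probe sets including 64 controls, which were dropped. Of the rest, 15752 were named through RefSeq (GRCm38.p6), 28 through the platform annotation alone and 695 had no name. Intensities were log2 transformed, and genes with a mean over 20 were tested with limma 3.58.1 (R 4.3.3), Benjamini-Hochberg adjusted over all of them. Muscles were compared within each diet, diets and the interaction in a fit of all 4 groups. Shared variation was the F test of the mouse, and relations with *Arntl* were slopes with diet as a term. Correlations over mice used 100000 permutations, two-sided (scipy 1.17.1).

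Same-numbered arrays came from the same animal per the labels. Over all tested genes their deviations correlated by over 0.1 in 3 of 10 HFD mice and 9 of 10 LFD mice. Fits with the mouse as a block were alternatives, beside leaving out each mouse, other filters, quantile normalization, an offset of 16, and trended robust variances. Members and lists were chosen with earlier results of these data known. The text names all members, the genes called in each list and the 5 most and least like *Arntl*; the list for *Per1* and the single mice were chosen after their values were seen, and so were leaving out each mouse within a diet and, for the 3 lists, mouse 141. Scripts were tested on simulated data.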

Additional observations from a re-analysis of the deposited data

Results flagged for a closer look

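*Nr1d1* in LFD gastrocnemius had 1 mouse far from the others: mouse 141 stood at 570.0 and the next highest mouse at 404.6. This gap was 0.499 of the range of the group, over the limit of Dixon's test for 10 samples. This was looked for in 40 groups, of which chance flags about 1 in 20.

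The correlation of *Arntl* between the muscles differed between the diets, with r HFD minus LFD of -0.96 (permutation p = 0.0368, unadjusted, 1 of 10 such tests). Without HFD mouse 144, r in HFD mice was 0.499, beside 0.924 in all LFD mice. By rank, rho was 0.406 in HFD mice and 0.976 in LFD mice. The median r of all 6479 tested genes was also lower in HFD mice, -0.01 against 0.389 in LFD mice.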

How the results depend on the processing

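Among the clock genes, 0 were called between muscles, between diets, in the interaction and in the relations with *Arntl* under every alternative run. With the mouse as a replicate block the muscle comparison called 0 members in both diets, and 233 of all genes in HFD mice and 219 in LFD mice, against 224 and 163 without it. The block took *Cry2* in LFD mice to an adjusted p of 0.0482 with a fold below the limit, and no other member under 0.05. The shared variation count over 40 arrays, 1 member, was 2 with a mean over 50, 3 with repeated quantile normalization, 2 with an offset of 16, 3 with trended robust variances and 1 to 3 with each mouse left out. Of all genes, 144 to 198 were called over the other settings and 131 to 203 with each mouse left out, against 169. In HFD mice alone, 0 members, the count was 1 with quantile normalization, 1 with the offset, 1 with trended robust variances and 0 to 1 with each mouse left out. There 30 to 37 of all genes were called over the other settings and 18 to 36 with each mouse left out, against 34. In LFD mice alone, 4 members, the count was 3 without a filter (379 of all genes, against 737), 5 under the other 4 settings (708 to 1086) and 2 to 6 with each mouse left out (203 to 1334). The adjusted p of *Dbp* was 0.0156 to 0.117 over the settings and that of *Clock* 0.0309 to 0.116 (limma). The cause was not tested. The following values, none of them called, changed sign with 1 mouse left out, and are given as lowest and highest. Gastrocnemius against quadriceps ranged between -0.17 and 0.0095 for *Arntl* and between -0.031 and 0.055 for *Clock* in HFD mice, and between -0.082 and 0.014 for *Per1* and -0.0085 and 0.043 for *Dbp* in LFD mice. The interaction ranged between -0.096 and 0.079 for *Arntl*, -0.14 and 0.021 for *Cry1*, and -0.081 and 0.059 for *Nr1d1*. HFD against LFD in gastrocnemius ranged between -0.014 and 0.12 for *Arntl*, -0.021 and 0.091 for *Cry1*, -0.095 and 0.22 for *Per1*, and -0.14 and 0.051 for *Nr1d1*. In quadriceps it ranged between -0.0037 and 0.14 for *Arntl*, -0.0039 and 0.054 for *Cry2*, -0.057 and 0.018 for *Dbp*, and -0.083 and 0.052 for *Nr1d1*. The slope on *Arntl* in gastrocnemius ranged between -0.027 and 0.44 for *Cry1* and -0.051 and 0.060 for *Cry2*. That of *Cry2* on *Arntl* of the other muscle ranged between -0.060 and 0.057 (gastrocnemius on quadriceps, and 0.0033 with repeated quantile normalization) and between -0.085 and 0.010 (quadriceps on gastrocnemius).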
